A study of Caenorhabditis elegans with 2 samples.

Results

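Of the 2741 peaks of MADF-3 in the series-wide thresholded list, 584 (21.3%) had their summit in the spaces between genes and away from gene starts. Each of these distal peaks lay outside every protein-coding gene, more than 500 bp from every protein-coding 5' end, and more than 500 bp from the 5' end of any tRNA, snoRNA or snRNA gene. The last condition removed 100 of the 684 peaks that met the others. The study profiled MADF-3 by chromatin immunoprecipitation and sequencing (ChIP-seq) in whole young adult Caenorhabditis elegans of strain RW12241, 63 hours old and synchronised as starved L1 larvae after bleaching. The worms of both samples carried st12241[madf-3::TY1::EGFP::3xFLAG] II, a CRISPR insertion that tags the gene at its own locus, and sonicated chromatin was immunoprecipitated through the tag with anti-GFP. Both samples belong to 1 group, as 2 biological replicates, so every comparison is between places in the genome or between the replicates, and no test over samples can be made. Values come from all tissues of the animal together. Positions are given for build ce11. Read counts are not part of the peak lists, and the depth of the libraries is unknown.

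The MADF domain is a DNA-binding domain related to Myb, and proteins that carry it are best known from the fly, where they include the sequence-specific regulator Adf-1. In worms most regulatory DNA lies just upstream of genes, and the space farther away holds enhancers, non-coding RNA genes, transposon remains and tandem repeats. A peak in a repeated sequence needs care: reads from near-identical copies cannot be told apart, and no source used here states how such reads were placed.

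The strongest distal peaks carried 2 short words at their summits, shown here because they recur through the results. The letters are from the reference genome (build ce11), capitals mark TACGGTAG in the first sequence and CGCGACGC in the other 3, on either strand, and each window is centred on a summit. A match is a description of the letters and not a binding site.
Between gcc-2 and cbp-1, chrIII:9765500-9765700, minus strand: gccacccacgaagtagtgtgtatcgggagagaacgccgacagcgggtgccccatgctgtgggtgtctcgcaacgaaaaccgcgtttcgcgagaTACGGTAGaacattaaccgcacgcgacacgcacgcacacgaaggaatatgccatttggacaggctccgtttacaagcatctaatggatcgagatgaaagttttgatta
Between kin-19 and C03C10.5, chrIII:4087741-4087841, plus strand: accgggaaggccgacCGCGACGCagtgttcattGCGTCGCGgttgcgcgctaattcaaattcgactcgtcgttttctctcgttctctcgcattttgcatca
Between hut-1 and ssl-1, chrIII:12713974-12714074, plus strand: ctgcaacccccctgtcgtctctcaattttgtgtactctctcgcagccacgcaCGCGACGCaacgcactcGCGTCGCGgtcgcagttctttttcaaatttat
Between dpy-21 and Y59A8B.24, chrV:17951339-17951439, plus strand: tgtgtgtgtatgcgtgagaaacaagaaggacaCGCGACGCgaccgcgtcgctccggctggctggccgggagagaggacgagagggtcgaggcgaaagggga

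CGCGACGC, searched on both strands, stood in the summit window, 100 bp to either side of the summit, of 30 distal peaks (5.14%, exact 95% interval 3.49 to 7.25%). Over all peaks the share was 4.3%, and over 141298 windows of the same length in the eligible ground it was 0.271%. The eligible ground is every base that meets the same rule of position, 29.5 Mb in all, and it stands beside the peaks throughout as the background of place. The word was more frequent at peaks than in the ground they lie in, and distal peaks held it about as often as the 4.08% of the other peaks. It stood in 6 of the 50 strongest distal peaks (12%), 15 of the next 150 (10%) and 9 of the last 384 (2.34%). Of its 30 carriers, 13 (43.3%) were met by a peak in both replicates' own thresholded lists, against 20.9% of all peaks, and 7 were copies in 1 family. No similar sequence elsewhere in the genome was found for 20. The median signal of all 30 in the series-wide list was 102, against 73.6 for all distal peaks. Series-wide signals ran higher than those in the replicates' own lists, where the medians of distal peaks were 38.1 in replicate 1 and 37.5 in replicate 2.

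TACGGTAG stood in 20 distal peaks (3.42%, exact 95% interval 2.10 to 5.24%), against 2.74% of all peaks and 1.12% of the windows of eligible ground. It stood in 9 of the 50 strongest distal peaks (18%), 6 of the next 150 (4%) and 5 of the last 384 (1.30%). Of those 9, however, 5 are copies of 1 sequence, the low-copy family described further on, and 2 more share another, so they are not independent cases. AGACGCAGA stood in 40 distal peaks (6.85%, exact 95% interval 4.94 to 9.21%), against 4.56% of all peaks and 0.900% of the ground. It stood in 5 of the 50 strongest and 24 of the last 384 (6.25%). The letters of AGACGCAGA and CGCGACGC cannot overlap on either strand, and 1 distal window held both. All 3 words were picked after these summits had been read, so their shares describe the peaks and test nothing.

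The strongest distal peak stood apart from all the others. It lay on III from 9765442 to 9765789, between gcc-2 (WBGene00011503), a gene 3457 bp away, and cbp-1 (WBGene00000366), which encodes the worm's CBP/p300 histone acetyltransferase. Its summit was 909 bp upstream of the cbp-1 start and 491 bp upstream of the start of a non-coding RNA gene on the other strand, R10E11.10. Its signal was 1361 in replicate 1 and 1521 in replicate 2, or 1441 ± 114 (SD, n = 2). In the series-wide list its signal was 2925, rank 2 among all 2741 peaks. Signal here is the strength that the authors' peak caller gave each peak, and no source used here states its scale.

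The next distal peaks were several times weaker and lay close together in strength. The second lay on I between kin-35 and rpa-2, 640 bp upstream of rpa-2, a subunit of the single-strand DNA-binding replication protein A. Its signal was 244 in replicate 1 and 263 in replicate 2. The peak between kin-19, a casein kinase 1, and C03C10.5 had 237 and 231. In both peaks the replicates lay far closer to each other than to either value of the cbp-1 peak.

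The peak between hut-1 and ssl-1, an ATPase of the SWI2/SNF2-like family, lay in a gap of only 691 bp, 542 bp upstream of ssl-1 and 150 bp past the end of hut-1. Its signal was 230 in replicate 1 and 195 in replicate 2. The peak between dpy-21, a histone demethylase of dosage compensation, and Y59A8B.24 had 176 and 166. The peak between hcp-3, the worm's centromeric histone H3, and hlh-11, a bHLH protein, had 182 and 187. It was 653 bp upstream of hcp-3. The peak on X between C30E1.4 and F52G3.8, 148 bp upstream of the non-coding RNA gene C30E1.9, had 163 and 165. The peak on I between Y106G6H.9 and duo-3 had 189 and 165. All 15 of the strongest distal peaks were in both replicates' own thresholded lists, as were 81 of the 82 other peaks among the 100 strongest of all.

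Several of the strongest distal peaks were copies of one another. Of the 15, 10 had a similar sequence elsewhere, meaning at least 80% identity over at least 100 bp of the summit window at a place more than 1 kb away. Grouping peaks that resemble each other gave 6 families with 5 or more distal peaks, holding 49 of them. A family's members share their sequence and are not independent of one another. Their letters are shown next, family by family, since they are what the members have in common.

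The low-copy family held 5 distal peaks and 1 other peak, and its sequence occurred at 8 other places for each of them. Capitals mark TACGGTAG, found in all 5.
Between K07D4.2 and gadr-4, chrII:4048015-4048115, minus strand: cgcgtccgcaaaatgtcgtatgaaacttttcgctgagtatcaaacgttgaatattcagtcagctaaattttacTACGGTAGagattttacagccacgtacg
Between C46C2.7 and wnk-1, chrIV:9196371-9196471, plus strand: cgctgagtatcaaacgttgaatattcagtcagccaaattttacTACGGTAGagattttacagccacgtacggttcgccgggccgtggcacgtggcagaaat
Between Y116A8A.150 and map-2, chrIV:16845526-16845626, minus strand: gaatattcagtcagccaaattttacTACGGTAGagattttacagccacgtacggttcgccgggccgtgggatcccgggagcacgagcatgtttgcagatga

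These 5 were among the strongest distal peaks, and all were in both replicates' own lists. The peak beside K07D4.2 had a signal of 212 in replicate 1 and 225 in replicate 2. The peak 345 bp past the end of C46C2.7, on the side of wnk-1 (a WNK kinase of osmotic balance), had 193 and 235, and its summit was 392 bp upstream of the non-coding RNA gene C46C2.12. The peak between Y116A8A.150 and map-2, a methionine aminopeptidase, had 158 and 196. Another, 366 bp past the end of zip-11, a bZIP transcription factor, with F42A6.5 on its far side, had 161 and 173. Over the family the signal ran from 123 to 212 in replicate 1 and from 96.6 to 235 in replicate 2. The lowest replicate value of the family lay above the upper quartile of all distal peaks, which was 51.1 in replicate 1 and 48.0 in replicate 2.

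The 40-bp repeat family was the largest, with 15 distal peaks and 10 other peaks. Capitals mark TTCNNGAA, inverted TTC and GAA triplets as in heat shock elements, which the windows of all 15 held, with a median of 13 matches each.
Between fbxa-190 and F56C3.10, chrX:1375167-1375267, plus strand: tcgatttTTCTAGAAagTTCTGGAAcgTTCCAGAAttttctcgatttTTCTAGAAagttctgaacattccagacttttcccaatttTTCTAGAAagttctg
Its second strongest member, chrIV:15896018-15896118, plus strand: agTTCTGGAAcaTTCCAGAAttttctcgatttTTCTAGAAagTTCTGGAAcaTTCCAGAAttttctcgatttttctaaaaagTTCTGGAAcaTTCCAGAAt

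In this family the signal ran from 39.7 to 165 in replicate 1 (median 60.0) and from 29.4 to 169 in replicate 2 (median 62.8). The member 504 bp past the end of the F-box gene fbxa-190 was the strongest, with 165 in replicate 1 and 168 in replicate 2. In both replicates' own lists were 9 of the 15, and similar sequence stood at 148 to 193 other places. The summits were not richer in GC than their flanks, with a median difference of 0 percentage points. Over all distal peaks, these arrays included, TTCNNGAA stood in 71 (12.2%), close to its share of all peaks (11.5%) and of the eligible ground (13.1%).

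The other tandem families had units of 25 and 15 bp. Capitals mark 1 unit at the summit of the strongest member of each.
25-bp repeat, chrIII:2499427-2499527, plus strand: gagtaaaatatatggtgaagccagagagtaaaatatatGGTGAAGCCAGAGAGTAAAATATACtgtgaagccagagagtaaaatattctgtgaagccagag
15-bp repeat, chrII:696907-697007, plus strand: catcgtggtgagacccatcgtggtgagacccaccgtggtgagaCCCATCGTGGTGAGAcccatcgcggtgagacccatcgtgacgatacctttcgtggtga

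The 25-bp family had 6 distal peaks, with a signal of 33.4 to 165 in replicate 1 and 47.6 to 112 in replicate 2, and 4 of them were in both replicates' lists. The 15-bp family had 10, with 21.9 to 94.6 in replicate 1 and 22.5 to 101 in replicate 2, and 2 were in both lists. The families differed in base composition: the median GC of the summit was 36% in the 25-bp family, 33% in the 40-bp family and 60.5% in the 15-bp family. Units were sought in a stretch around each summit that is longer than the summit window. The exact unit length was found in 11 of 15, 3 of 6 and 8 of 10 members of the 40-bp, 25-bp and 15-bp families.

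The last 2 families were dispersed rather than tandem. Capitals mark CGCGACGC in the high-copy family and GGCCGAGTG, letters that occur in the A box of tRNA genes, in the A-box word family.
High-copy family, strongest member, chrII:12059980-12060080, plus strand: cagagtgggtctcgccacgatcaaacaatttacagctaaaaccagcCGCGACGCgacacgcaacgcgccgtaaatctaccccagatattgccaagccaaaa
High-copy family, next member, chrIV:16866624-16866724, minus strand: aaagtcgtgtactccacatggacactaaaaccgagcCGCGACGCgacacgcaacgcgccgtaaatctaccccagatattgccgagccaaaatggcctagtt
A-box word family, strongest member, chrIV:16731398-16731498, plus strand: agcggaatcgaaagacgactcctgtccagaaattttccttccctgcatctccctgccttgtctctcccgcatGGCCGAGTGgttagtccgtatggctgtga
A-box word family, next member, chrIV:8412710-8412810, minus strand: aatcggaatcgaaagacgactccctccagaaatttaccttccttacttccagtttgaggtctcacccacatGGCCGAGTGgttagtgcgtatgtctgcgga

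All 7 distal peaks of the high-copy family held CGCGACGC, and similar sequence stood at 121 to 548 other places. Their signal was 26.3 to 60.0 in replicate 1 and 19.4 to 71.0 in replicate 2, and 2 were in both lists. All 6 distal peaks of the A-box word family held GGCCGAGTG. The word stood in 1.03% of distal peaks, 0.876% of all peaks and 0.0552% of the eligible ground. No distal peak outside the family held it, so its distal share rests on copies of 1 sequence. The signal of these 6 peaks was 25.8 to 47.4 in replicate 1 and 28.5 to 43.2 in replicate 2, and 0 of 6 were in both lists. None has an annotated tRNA gene start within 500 bp, since the rule removed such peaks. The B-box word GTTCNANNC of tRNA genes was found in 3 of these 6. Over all distal peaks it stood in 44 (7.53%), against 12.3% of all peaks and 6.82% of the ground. For both words the shares of all peaks include peaks near tRNA genes, which the rule removed from the distal peaks.

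**Figure D1:**
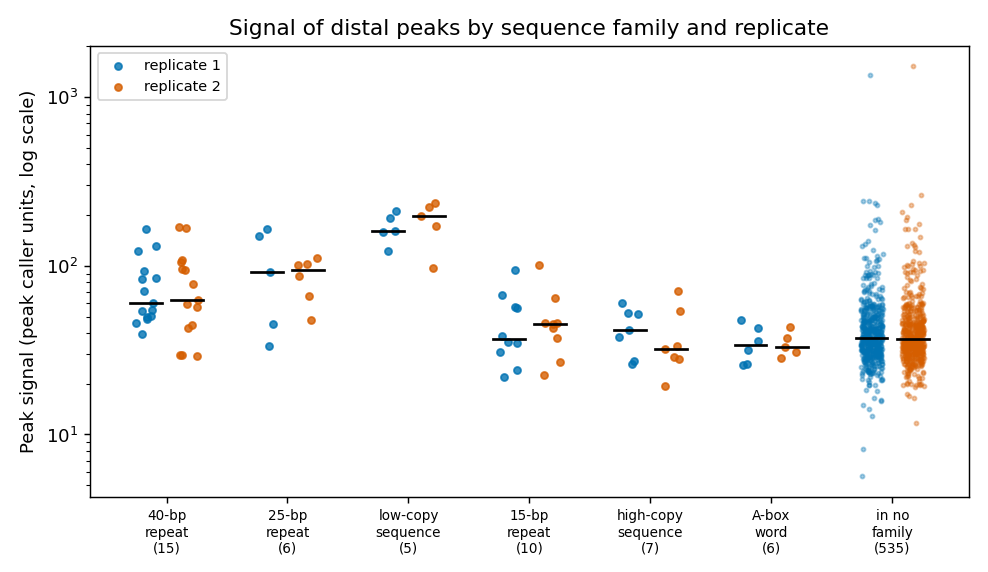
Peak signal in peak caller units on a log axis, by sequence family of the distal peaks, with the number of distal peaks in brackets. Blue points are replicate 1, orange points replicate 2 and black bars medians. Among the families the low-copy family sits highest, at 123 to 212 in replicate 1, and the A-box word family is at 25.8 to 47.4. The column of peaks in no family reaches higher, with the cbp-1 peak at 1361 in replicate 1.

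Smaller groups of similar peaks held other strong members. The peak on IV between K08F11.1 and fbxb-78, 259 bp past the end of K08F11.1, had 242 in replicate 1 and 210 in replicate 2. Its summit was 118 bp upstream of a non-coding RNA gene, WBGene00195021. It shared its sequence with the peak upstream of rpa-2 and with a distal peak on IV at 2896036 to 2896255, which had 64.2 and 44.5. A second peak of the same 12244-bp gap, 68 bp upstream of the pseudogene WBGene00023323, had 187 and 178. It resembled 3 further distal peaks, of which the one on I past the end of F40E3.3 had 118 and 134. Each of these sequences was found at 7 other places. The same K08F11.1 gap thus held 2 of the 15 strongest distal peaks.

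Among the distal peaks kept in the thresholded list, repeated sequence was about as common as in the ground around them. A similar sequence elsewhere was found for 179 distal peaks (30.7%, exact 95% interval 26.9 to 34.6%), against 18.9% of all peaks and 15.8% of the other peaks. Of 1413 windows spread evenly over the eligible ground, 402 had one (28.5%, 26.1 to 30.9%), which overlaps the interval of the distal peaks. Copies were more frequent among strong distal peaks. Within the 100 strongest of all 2741 peaks, 12 of 18 distal peaks had a copy, against 6 of 82 others (7.32%). Within ranks 1001 to 2000 the shares were 25% of 220 distal peaks and 15.6% of 780 others. Wholly soft-masked windows were 6.85% of distal peaks, 2.12% of all peaks and 3.97% of the ground, but the median masked share of a window was lower at distal peaks (20.9%) than in the ground (36.8%).

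The thresholded list itself leaves out much of this repeated sequence. A ranked list made from both replicates held 180 further peaks that meet the rule of position but are missing from the thresholded list. All score at least 830, the lowest score of the thresholded list. The 180 were 23.6% of the 764 high-scoring ranked peaks in distal ground, and 1.60% of those elsewhere were missing. Another ranked list made from both replicates was deposited and was not searched. Of these 180, 177 (98.3%) had a similar sequence elsewhere. Their median series-wide signal was 155, against 73.6 for the 584 distal peaks kept. The share of copies among distal peaks is therefore that of the list as deposited, and counting the 180 as well would raise it. The reason for the gap was not tested.

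Distal peaks gathered just past the 3' ends of genes. Within 500 bp of a protein-coding 3' end lay 228 of the 584 (39.0%, exact 95% interval 35.1 to 43.1%), while 14.1% of the eligible ground lies there. The density was 54.9 peaks per Mb of eligible ground (exact Poisson 95% interval 48.0 to 62.5), against 20.7 at 501 to 1000 bp (15.7 to 26.8) and 11.1 beyond 5000 bp (8.98 to 13.7). The summit lay at a median of 162 bp past the nearest gene end (quartiles 99 and 259). Their median series-wide signal was 74.8, against 72.9 for the rest. They were in both replicates' lists in 15.4% of cases (10.9 to 20.7%), against 21.9% (17.7 to 26.6%) of the distal peaks farther away, and these intervals overlap. Intervals cover the counting of peaks alone.

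**Figure D2:**
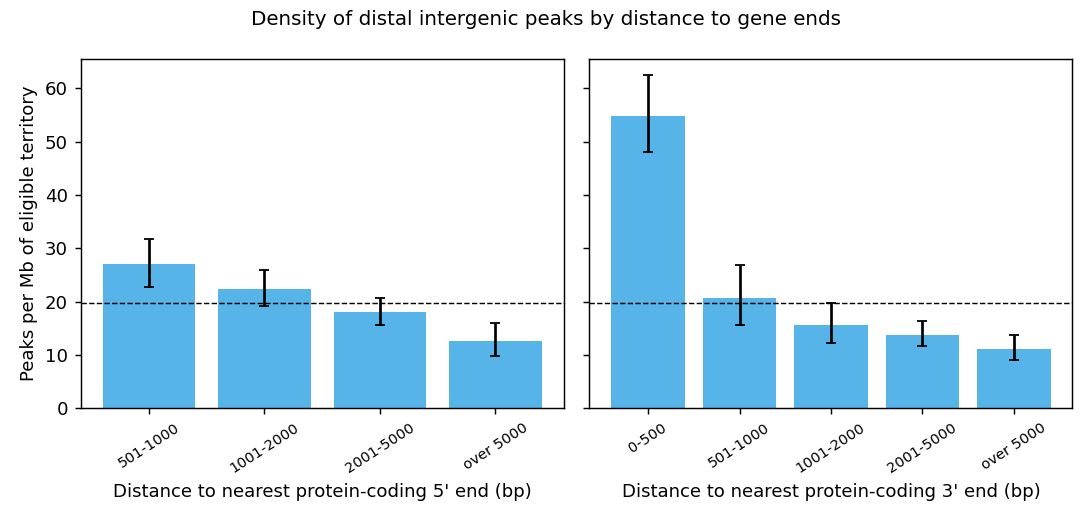
Distal peaks per Mb of eligible ground (vertical axis) by distance in bp to the nearest protein-coding 5' end (left) and 3' end (right). Bars are densities, whiskers exact Poisson 95% intervals and the dashed line the density of all distal peaks, 19.8 per Mb. The bar within 500 bp of a 3' end reaches 54.9, and the bars fall with distance from either end.

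Genes with a distal peak within 500 bp past their end included many that encode ribosomal proteins. In all, 269 of 19973 protein-coding genes had one (1.35%), and 43 of the 228 peaks lay within reach of the ends of 2 genes. Among 78 ribosomal protein genes, 12 had one (15.4%, exact 95% interval 8.21 to 25.3%), namely rpl-7A, rpl-9, rpl-13, rpl-21, rpl-31, rps-2, rps-6, rps-8, rps-11, rps-14, rps-19 and rps-27. Of 269 nuclear hormone receptor genes, 156 collagen genes, 322 F-box genes and 63 homeobox genes, 0 had one, and of 1190 chemoreceptor genes 2 had one, srt-23 and srw-36. The histone list had 1 (his-47) of 72, the neuropeptide list 1 (nlp-40) of 140 and the C-type lectin list 2 (clec-101 and clec-112) of 240. The exact 95% intervals of the F-box (0 to 1.14%) and chemoreceptor lists (0.0204 to 0.606%) lay below the 1.35% of all genes. Those of the nuclear hormone receptor (0 to 1.36%), collagen (0 to 2.34%) and homeobox lists (0 to 5.69%) included it. So did those of the histone, neuropeptide and C-type lectin lists.

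The ribosomal peak with the highest signal lay 117 bp past rps-6, a small-subunit protein, with 111 in replicate 1 and 102 in replicate 2. The peak 185 bp past rps-19, also near the end of T05F1.2, had 78.6 and 100. The peak 85 bp past rpl-7A, a large-subunit protein, had 75.2 and 80.9 and lay 178 bp past tald-1, a transaldolase, on the other side. These are the strongest of the 12, which ran from 23.0 to 111 in replicate 1 and from 24.9 to 102 in replicate 2. The median distal peak had 38.1 and 37.5, and the peaks past rpl-9, rpl-13 and rps-8 lay below it in both replicates.

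Outside the ribosome, and chosen after their values were seen, act-2 (an actin), enol-1 (enolase), hsp-1 (an HSP70 chaperone) and hmg-1.1 (an HMG-box protein) had such peaks. The peak 141 bp past act-2 had a signal of 108 in replicate 1 and 95.7 in replicate 2. The peak 76 bp past enol-1 had 114 and 91.4. The peak 57 bp past hsp-1, within 68 bp of the end of nra-1, had 106 and 73.9. The peak 107 bp past hmg-1.1 had 93.0 and 104. In each, the replicates differed by less than 2-fold, as they did in 90.4% of all distal peaks. Both values were above the upper quartile of distal peaks, but the genes were chosen with these values known. Peaks past other genes were as strong or stronger, such as the one past F40E3.3, with 118 in replicate 1 and 134 in replicate 2. Expression was not measured in these samples, so levels of the genes were not compared.

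The bases at the summit differed between the peaks near gene ends and the others. Within 500 bp of a 3' end the median GC was 42% in the 100 bp at the summit and 36.5% in the flanks, with a median difference of 4.25 percentage points. Farther away it was 48% and 35%, with a difference of 13. Over all distal peaks the summit had 45% (quartiles 40 and 52), the difference was 9 percentage points (quartiles 1 and 17.5), and windows of eligible ground had a median of 33.7%. The other peaks had 48% at the summit and the same difference of 9. Near gene ends, 22.4% had a similar sequence elsewhere (17.1 to 28.3%), against 36.0% farther away (31.0 to 41.2%).

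**Figure D3:**
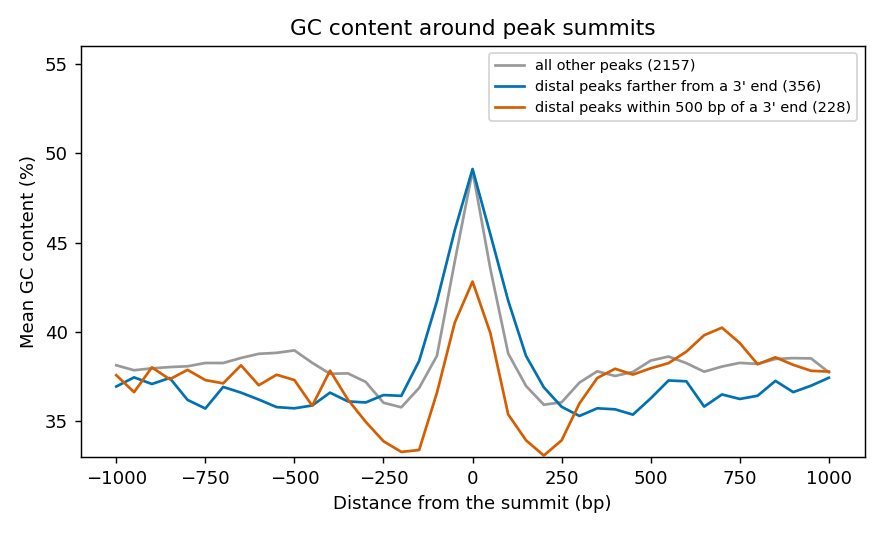
Mean GC content in percent, in 50-bp windows, by distance in bp from the summit, for distal peaks within 500 bp of a 3' end (orange), distal peaks farther away (blue) and all other peaks (grey). At the summit the means were 42.8%, 49.1% and 49.0%, and at 200 bp on the side of higher coordinates 33.1%, 36.9% and 35.9%.

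The X chromosome held fewer distal peaks per Mb than the autosomes, and the values lay farthest apart near gene ends. X held 102 distal peaks (17.5%) and 22.1% of the eligible ground, or 15.6 per Mb (12.7 to 18.9) against 21.0 (19.1 to 22.9) on the autosomes. Within 500 bp of a 3' end the density was 30.5 per Mb on X (19.1 to 46.2) and 60.0 on the autosomes (52.1 to 68.8). Farther away it was 13.7 on X (10.9 to 17.1) and 14.1 on the autosomes (12.5 to 15.9). The difference between these 2 contrasts was not tested. Among autosomes the density ran from 14.4 per Mb on V to 31.2 on I, with 28.8 on III, 20.6 on II and 18.0 on IV. In the order V, X, IV, II, III and I, each neighbouring pair had overlapping intervals. In the central 50% of the autosomes lay 55.8% of autosomal distal peaks (51.2 to 60.3%), 47.3% of the autosomal eligible ground and 62.8% of the other autosomal peaks.

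**Figure D4:**
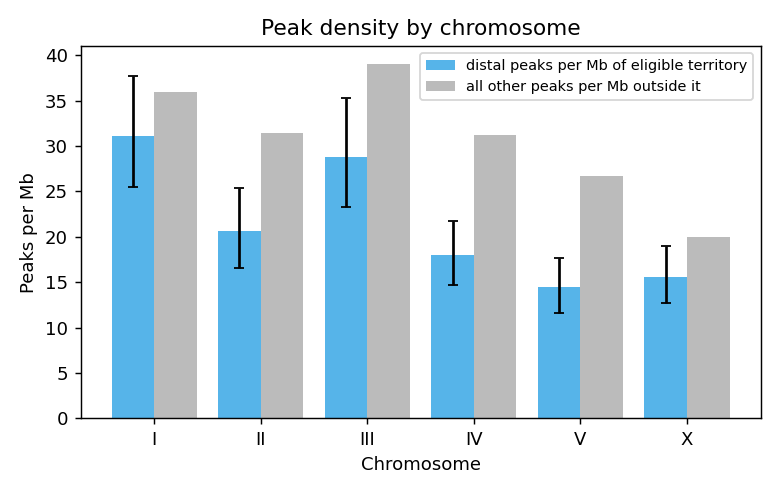
Peaks per Mb by chromosome. Blue bars are distal peaks per Mb of eligible ground with exact Poisson 95% intervals, and grey bars all other peaks per Mb of the rest of the chromosome. Both were highest on I and III, and X had 15.6 distal and 19.9 other peaks per Mb.

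Distal peaks were densest in spaces flanked by gene ends on both sides. Spaces between 2 gene ends (3' to 3') held 131 distal peaks (22.4%) and 13.7% of the ground, at 32.3 per Mb (27.0 to 38.3). Spaces between 2 gene starts held 130 (22.3%) and 31.9% of the ground, at 13.8 per Mb (11.5 to 16.4). Spaces between genes in tandem held 323 (55.3%) and 54.1% of the ground, at 20.2 per Mb (18.1 to 22.5). The 3 intervals did not overlap. Median series-wide signals were alike, at 76.0, 72.6 and 73.4.

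Density also fell with distance from gene starts, where the rule leaves no peak within 500 bp. The median distance to the nearest protein-coding 5' end was 1801 bp, against 2301 bp for the eligible ground, and the farthest summit lay 11619 bp away. From 501 to 1000 bp lay 142 distal peaks, at 27.0 per Mb (22.7 to 31.8), and beyond 5000 bp lay 69, at 12.7 per Mb (9.90 to 16.1). Distal peaks were upstream of their nearest start in 365 cases (62.5%), while 71.9% of the ground is upstream of its nearest start. The 2 peaks just inside the distance limit lay 502 bp upstream of ftt-2, with a signal of 38.0 and 45.0 in replicates 1 and 2, and 504 bp upstream of maph-1.3, with 61.6 and 54.3. The 2 just outside lay 499 bp downstream of the start of coa-5, with 31.1 and 46.3, and 496 bp upstream of fbxa-111, with 32.9 and 30.6.

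Annotated non-coding genes other than the small RNA classes in the rule lay near some distal peaks. A non-coding or pseudogene 5' end stood within 500 bp of 106 (18.2%), against 20.8% of all peaks and 21.0% of the eligible ground. All peaks include those near tRNA, snoRNA and snRNA genes, which the rule keeps out of distal peaks and of the eligible ground. The share of all peaks is therefore not on equal terms with the others. The classes went different ways. Genes annotated as ncRNA, mostly short transcripts without a named role, stood near 76 (13.0%, 10.4 to 16.0%) against 7.80% of the ground, and 42 summits (7.19%) lay inside one against 1.63% of the ground. Pseudogenes stood near 15 (2.57%, 1.44 to 4.20%) against 5.40%, and held 29 summits (4.97%) against 9.89%. piRNA genes, the sources of germline Piwi-bound small RNAs, stood near 11 (1.88%, 0.944 to 3.35%) against 7.76%.

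Distal peaks near longer or better-known RNA genes were few in number, but their shares were not below those of the eligible ground. Within 500 bp of a lincRNA 5' end lay 0.856% of distal peaks (0.279 to 1.99%) against 0.481% of the ground. For rRNA genes the share was 0.171% (0.00434 to 0.950%) against 0.0306%, and for microRNA genes 1.03% (0.378 to 2.22%) against 0.374%. The 5 lincRNA genes with a 5' end within 500 bp were linc-1, linc-27, linc-91, linc-103 and linc-146, and of these 5 peaks the one near linc-1 had the highest series-wide signal, with 48.0 in replicate 1 and 30.0 in replicate 2. It is the peak that lies 178 bp past rpl-31. The single 5S rRNA gene was rrn-4.15, whose peak had 33.3 and 44.3. The 6 microRNA genes with a distal peak near their 5' end were cel-mir-45, cel-mir-51, cel-mir-72, cel-mir-80, cel-mir-238 and cel-mir-270. The strongest of these lay 74 bp upstream of cel-mir-51 and 316 bp past the end of alh-3, with 60.4 and 54.0. The peaks near cel-mir-80 and cel-mir-238 lay in the same gap, between plg-1 and K01F9.2.

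By the nearest 5' end, ribosomal protein genes gave mostly the same peaks again, since 11 of these 12 lie within 500 bp past a ribosomal protein gene's end. They were nearest for 12 distal peaks (2.05%, exact 95% interval 1.07 to 3.56%), while 0.186% of the eligible ground has one nearest. Chemoreceptor genes, a large family of neuronal receptors, were nearest for 14 (2.40%, 1.32 to 3.99%) against 5.09% of the ground. Nuclear hormone receptor genes were nearest for 10 (1.71%) against 1.84% and F-box genes for 7 (1.20%) against 1.39%, both near the share of the ground. Collagen genes were nearest for 0 (0 to 0.630%), an interval that includes their 0.622% of the ground. The other lists had 2 each (0.342%, 0.0415 to 1.23%). These were nlp-40 and flp-16 among neuropeptides (1.42% of the ground) and his-47 and his-70 among histones (0.133%). Among homeobox genes they were ceh-20 and ceh-18 (0.507%), and among C-type lectins clec-219 and clec-112 (0.753%). That interval includes the share of the ground for all of these lists but the neuropeptides.

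Like the other peaks, distal peaks were called in both replicates mainly where they were strong. Of 584, 187 (32.0%) were met by a peak of replicate 1's own thresholded list, against 32.7% of all peaks, and 169 (28.9%) by one of replicate 2's, against 30.3%. Both lists met 113 (19.3%, exact 95% interval 16.2 to 22.8%), against 20.9% of all peaks and 31.2% of the promoter peaks, those with a protein-coding 5' end at most 500 bp away. The conservative list, made by comparing the true replicates, met 465 (79.6%), against 77.2%. By rank among all peaks, both lists met 18 of 18 distal peaks in the first 100, 30 of 31 in ranks 101 to 250, 64 of 169 in ranks 251 to 1000, 1 of 220 in ranks 1001 to 2000 and 0 of 146 in the rest. The other peaks had much the same shares, at 81 of 82, 119 of 119, 253 of 581, 5 of 780 and 1 of 595.

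In the replicates' own ranked lists, 559 distal peaks had a signal in both, 12 had no overlapping peak in replicate 1 and 13 none in replicate 2. Of all 584, 528 had signals within 2-fold of each other (90.4%), against 91.2% of all peaks. The median log2 ratio of replicate 2 over replicate 1 was -0.03, and replicate 2 was higher in 272. Across the 559 peaks Spearman's rho of the 2 signals was 0.425, a description over peaks that share 2 libraries.

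**Figure D5:**
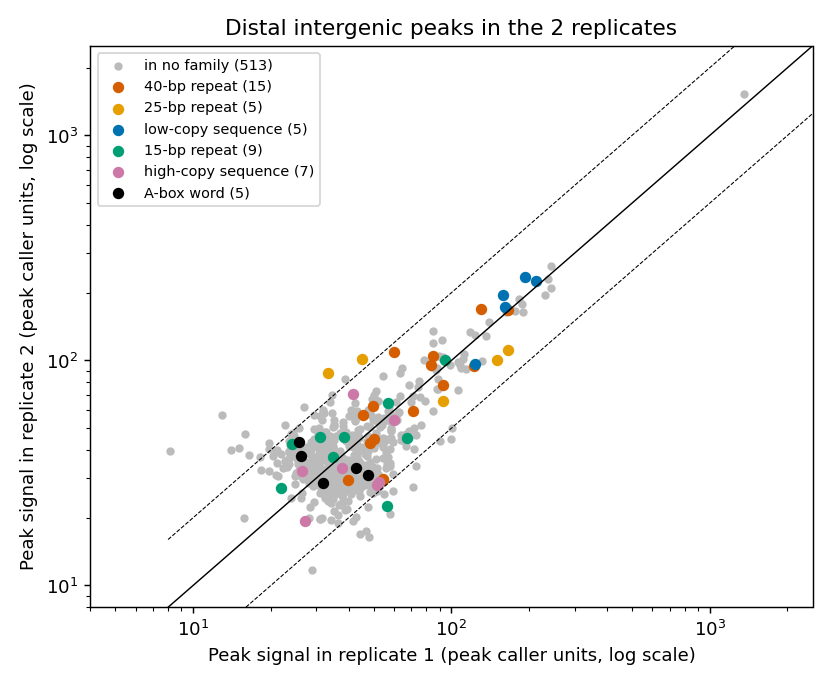
Signal of each distal peak in replicate 1 (horizontal) and replicate 2 (vertical), both in peak caller units on log axes, for the 559 with a value in both. Colours mark sequence families, the solid line is equality and the dashed lines 2-fold. The cbp-1 peak stands alone at the upper right, and the quartiles are 31.1 and 51.1 in replicate 1 and 31.0 and 48.0 in replicate 2.

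Most distal peaks stood alone. The median distance between neighbours was 43377 bp, 70 lay within 1 kb of another and 166 within 10 kb. The densest runs held 5 within 10 kb. One, on III from 13061324 to 13070027, lay in the space between the starts of F54F12.1 and Y39E4B.6, and its 5 peaks had signals of 23.8 to 47.5 in replicate 1 and 26.3 to 60.2 in replicate 2. None of them had a similar sequence elsewhere. The other, on I from 4759731 to 4769652, held 4 peaks in the gap between kin-35 and rpa-2, with the strong peak upstream of rpa-2 among them, and 1 between viln-1 and kca-1. All 4 in the gap had similar sequence elsewhere.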

How the data were processed

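ChIP-seq of MADF-3::EGFP in 2 biological replicates was analysed from the authors' deposited peak lists, which were scored by the irreproducible discovery rate (IDR). The deposited signal is the strength the authors' peak caller gave each peak. The score is a whole number up to 1000 that the authors made from the IDR, and the ranked lists deposited by the authors also hold a −log10 of the IDR. Per the deposited descriptions the series-wide lists came from the alignments of both replicates. Aligner, peak caller, control, versions, signal scale and the placing of reads with several matches are stated in no source used here, and no untagged control was used here.

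Summits came from the deposited offset, another of the authors' columns. Genes came from Ensembl release 115 and sequence from the RefSeq assembly of the same build, with its soft-masking. The 5' and 3' ends are the annotated gene ends. The background of place was every base meeting the rule. Replicate signals are the highest among overlapping peaks of each ranked list. Similar sequences were sought with BLAST 2.17.0 (e-value 1e-05, hits of at least 80% identity over 100 bp), with 1 of every 100 windows of the eligible ground searched alike. Tables were made with Python 3.11.15, pandas 2.3.3 and scipy 1.17.1. Scripts were tested on simulated data.

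Members, words, families and gene lists were chosen with earlier results of these data known. Named genes were those beside the 15 strongest distal peaks, at the distance limit, near non-coding genes, in groups of 5 or fewer and in the densest runs, and others are said to be chosen after their values were seen. Intervals are exact 95% binomial or Poisson and cover counting error only, since neighbouring peaks share libraries and sequences. Alternatives were other peak lists, distances, overlaps, windows and identities.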

Additional observations from a re-analysis of the deposited data

Results flagged for a closer look

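A signal appeared in data outside the main measurement. The ranked list that was searched held 215 peaks at or above the lowest score of the thresholded list that are missing from it. Of these, 180 met the rule for distal peaks. The strongest lay on X from 15810979 to 15811178, between Y7A5A.7 and Y7A5A.8 and 6934 bp from the nearest protein-coding 5' end. Its series-wide signal of 3508 exceeded every distal peak kept, of which the cbp-1 peak was the strongest, at 2925 on that scale. A second in the same space, from 15808113 to 15808276, had 1467, and one on V between B0238.9 and Y49G5A.1 had 1424. Of the 180, 34 lay on X, and 44 had a signal at least as high as the member of rank 15 among the distal peaks kept. No control library was used here, so these values have no background beside them.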

How the results depend on the processing

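The number of distal peaks was 175 to 202 in the replicates' own lists, 296 among the 1370 stronger peaks and 909 with a limit of 200 bp, against 584. Their share of all peaks was 15.9% with a limit of 1000 bp, 33.2% with 200 bp and 18.4% outside every annotated gene, against 21.3%. The share on X was 13.7 to 15.3% in the replicates' own lists, against 17.5%. The share between gene starts was 18.2% at 1000 bp and 32.7% at 200 bp, against 22.3%, and the share between gene ends 26.4% and 14.9%, and 25.7 to 29.2% in the replicates' lists, against 22.4%. The tandem share was 48.5 to 51.4% in the replicates' lists, against 55.3%. The median GC difference was 9.5 percentage points in the conservative list, 8.5 to 8.75 in the replicates' lists, 8.75 among the stronger peaks, 10 at 200 bp and 7 with a summit window of 200 bp, against 9. In both replicates' lists were 38.2% of the distal peaks among the stronger peaks, against 19.3%. Copies at 90% identity were found for 23.8%, against 30.7%. Non-coding 5' ends within 200 bp were found for 12.5%, against 18.2% within 500 bp. The share within 500 bp of a 3' end was 43.7% without members that have a similar sequence elsewhere, an alternative chosen after seeing the data, against 39.0%, and 36.6 to 39.6% in the replicates' lists. Fewer peaks in the replicates' lists and other limits give fewer or more members by construction, and the cause of the other moves was not tested. The other settings moved shares by less than the counting interval and counts by less than 1.5 times, and left the GC difference at 9. No paired analysis was possible because both replicates belong to 1 group. Depth is unknown, so a place without a peak was not read as unbound.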
